A study of Homo sapiens with 9 samples.

Results

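PAX2 and 8 genes of the PAX-SIX-EYA network, namely PAX8, SIX2, SIX4, EYA1, EYA2, EYA3, EYA4 and SALL1, were followed in PANC-1 cells, a human line grown from a carcinoma of the pancreas that keeps traits of duct cells. The members were all probe sets annotated to these symbols, which gave 26 probe sets for 9 of the 19775 genes on the array. They were listed with their log2 signal over DMSO at 6 h and 72 h already known, so those values and the difference between the times, which comes from the same arrays, are given as a description and without a test. Cells were exposed to 5 uM of the small molecule BRD7552 for 72 h or 6 h, and solvent cells received DMSO for a time that the labels do not give, with 3 arrays in each of these 3 groups. The dose was the lowest that gave the strongest induction of PDX1, the pancreatic homeobox factor, per the submitters. The same DMSO arrays served both exposure times, and time in culture cannot be told apart from exposure.

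PAX2 and PAX8 are paired-domain transcription factors that act together in the forming kidney, and PAX2 recruits histone methylation complexes to its targets through the adaptor PTIP. SIX-family proteins are homeodomain factors that bind DNA, EYA proteins are coactivators with a phosphatase domain that the homeodomain factors bring to their targets, and SALL1 is a zinc finger factor of nephron progenitors. The network sets up kidney, ear, eye and muscle, and several of its members are switched on again in tumours.

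The arrays carried 54675 probe sets, and the median signal was 16.2 to 18.8 on the 72 h arrays, 17.7 to 18.5 on the 6 h arrays and 17.8 to 18.3 on the DMSO arrays. The upper quartile was lower on 72 h replicates 2 and 3 (97.5 and 99.7) than on the other arrays (112 to 119), and ACTB control probe sets, whose 3' over 5' ratio rises with RNA breakdown, gave 2.07 to 2.21 at 72 h, 1.74 to 2.05 at 6 h and 1.91 to 2.01 in DMSO. The same ratio for GAPDH was 1.34 to 1.39 at 72 h, 1.27 to 1.31 at 6 h and 1.31 to 1.35 in DMSO. Its 72 h and DMSO ranges overlapped. Replicates spread more at 72 h, where the median SD over genes was 0.129 on the log2 scale, against 0.0750 at 6 h and 0.0666 in DMSO. Signal is in linear intensity units throughout, and a gene was kept for testing when its brightest probe set averaged at least 17.8, the median probe set, which left 12678 genes. All 6 epithelial markers checked (KRT7, KRT8, KRT18, KRT19, EPCAM and SOX9) passed that level. Their summed signal was 27424 to 29269 at 72 h, 34607 to 34749 at 6 h and 34248 to 35112 in DMSO. By limma 5 of the 6 fell at 72 h, where 26.6% of all genes were called. Over all genes 1056 calls were higher and 2322 lower, but 1010 and 972 with each array centred on its median. Of 6 measured kidney tubule markers 5 lay below the filter, and their summed signal was 90.3 to 99.1 at 72 h, 89.6 to 109.5 at 6 h and 91.7 to 98.5 in DMSO. Of the markers of thyroid follicle, skeletal muscle, leukocytes, fibroblasts and endothelium, 1 of 3, 2 of 5, 0 of 3, 2 of 4 and 1 of 3 measured were above the filter, and limma called none of them at 72 h or 6 h. The labels do not say that replicates came from separate cultures, so standard errors measure only the spread between these samples.

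PAX2 had a higher signal on every BRD7552 array than on any DMSO array, and a higher one at 72 h than at 6 h. Probe set 206228_at, the brighter of its pair, read 554, 560.4 and 547 at 72 h, 395, 385 and 385 at 6 h, and 226, 240.3 and 239 in DMSO. The 3 groups did not overlap, and the means were 554 ± 6.65, 388 ± 5.85 and 235 ± 7.99 at 72 h, at 6 h and in DMSO (SD, n = 3 each). Over DMSO the log2 signal was higher by 1.24 ± 0.059 at 72 h (SE) and by 0.73 ± 0.059 at 6 h, or 2.36-fold and 1.65-fold, and the 72 h signal was 1.43-fold the 6 h signal (log2 0.51 ± 0.059). Ordered by log2 change from the highest, PAX2 was number 17 of 12678 genes at 72 h and number 8 at 6 h. Replicates 2 and 3 at 6 h held exactly the same value, as is common in this table, so the spread at 6 h may be too small. In RNA of whole cultures, more cells with the transcript and more transcript per cell cannot be told apart.

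The dimmer PAX2 probe set kept the order of the groups with smaller distances. Probe set 206229_x_at, whose suffix marks probes that may also bind other transcripts, read 51.5, 48.7 and 46.1 at 72 h, 42.4, 45.4 and 42.4 at 6 h, and 27.1, 40.02 and 34.4 in DMSO. The lowest 72 h array lay just above the highest 6 h array, and all 6 BRD7552 arrays lay above the DMSO arrays. Its log2 change was 0.54 ± 0.15 at 72 h and 0.38 ± 0.15 at 6 h, against 1.24 and 0.73 for the brighter one. Both probe sets carry the PAX2 symbol, and which transcript forms each one reads is not given in the sources used here.

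**Figure D1:**
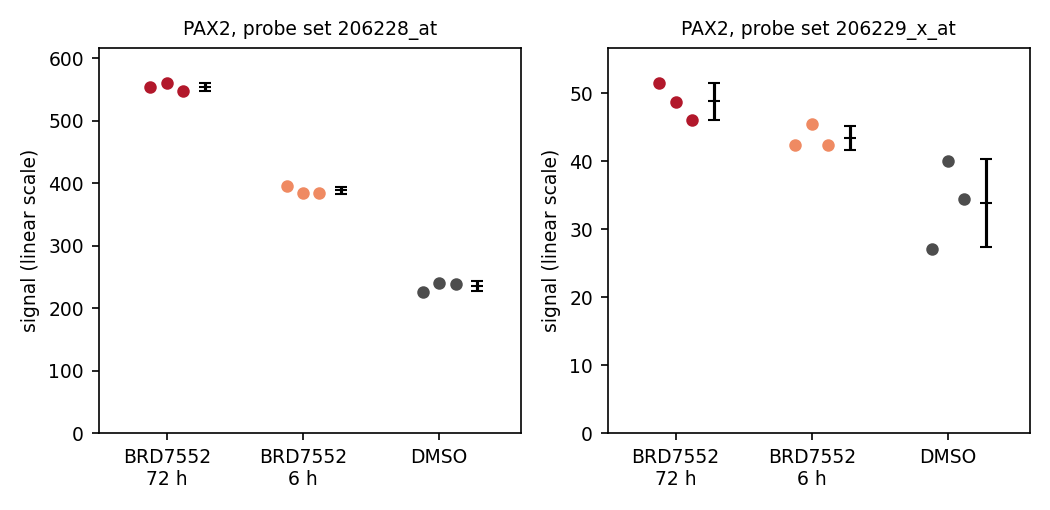
Signal of both PAX2 probe sets (linear scale, axes from 0) on each array of the 72 h, 6 h and DMSO groups. Points are arrays and black bars the mean ± SD of 3 arrays. The 206228_at means are 554, 388 and 235, and on both probe sets every BRD7552 array lies above every DMSO array.

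The stretches before the PAX2 starts, and before those of SIX4 and SIX2, the other members with the largest log2 changes at 72 h, are shown for reference, as these members differed most between the groups. RefSeq (GRCh38.p14) lists 2 PAX2 starts, and the 250 bases before each lie on the plus strand at chr10:100735146-100735395 and chr10:100745332-100745581. The SIX4 window is chr14:60724352-60724601 and the SIX2 window chr2:45009453-45009702, both on the minus strand and read 5′ to 3′ towards the gene. Capitals mark the CCAAT box, searched as CCAAT on both strands.
PAX2, first start: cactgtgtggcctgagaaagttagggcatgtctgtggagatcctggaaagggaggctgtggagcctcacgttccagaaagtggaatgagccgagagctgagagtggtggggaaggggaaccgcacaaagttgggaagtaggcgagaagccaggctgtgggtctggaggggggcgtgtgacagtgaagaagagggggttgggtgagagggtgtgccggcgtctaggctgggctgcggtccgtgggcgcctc
PAX2, second start: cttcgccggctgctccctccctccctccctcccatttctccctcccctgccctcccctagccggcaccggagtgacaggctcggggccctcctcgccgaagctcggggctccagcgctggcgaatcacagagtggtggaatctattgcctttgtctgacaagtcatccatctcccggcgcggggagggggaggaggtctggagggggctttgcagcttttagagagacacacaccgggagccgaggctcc
SIX4: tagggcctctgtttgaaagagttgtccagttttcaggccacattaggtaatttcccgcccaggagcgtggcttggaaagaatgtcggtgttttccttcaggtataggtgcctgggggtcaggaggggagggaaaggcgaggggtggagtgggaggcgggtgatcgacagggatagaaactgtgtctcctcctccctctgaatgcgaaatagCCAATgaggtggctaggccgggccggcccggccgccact
SIX2: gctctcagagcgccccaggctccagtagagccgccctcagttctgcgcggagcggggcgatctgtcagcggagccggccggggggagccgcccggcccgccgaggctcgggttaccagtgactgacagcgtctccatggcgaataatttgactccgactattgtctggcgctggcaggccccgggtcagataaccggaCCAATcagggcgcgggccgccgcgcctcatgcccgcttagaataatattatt
A CCAAT box begins 39 bases before the SIX4 start and 52 bases before the SIX2 start. It occurs in 32.0% of all 35116 windows of this length, and its letters are in neither PAX2 window. Also searched on both strands were TATAAA (the TATA box, in 10.7% of windows), TCAGGTT (core of the MEF3 site of SIX-family proteins, 2.79%), GCGTGAC (core of a paired-domain site, 2.20%) and TGATGNAA (core of the composite site of ATF4, 3.14%), none of which contains another. None of these 4 is in the 4 windows shown, which says only that the letters are not there. Among the other members with a window in the table, PAX8 has 2 CCAAT boxes, EYA3 has 1 GCGTGAC, and EYA4 has no match to the 5 motifs. The PAX2 windows hold 10 and 15 CG pairs, the SIX4 window 11 and the SIX2 window 26, against a median of 11.

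SIX4 and SIX2, the homeodomain members, had log2 changes of opposite sign. SIX4, which acts with related homeodomain factors in muscle and kidney formation in mouse, read 251, 209 and 201 at 72 h, 192, 192 and 209 at 6 h, and 162, 182 and 171 in DMSO (229796_at). All 6 BRD7552 arrays were above the DMSO arrays, while the 72 h and 6 h arrays overlapped. Its log2 change was 0.35 ± 0.095 at 72 h (1.28-fold) and 0.21 ± 0.095 at 6 h (1.15-fold). The highest 72 h array, replicate 1, stood apart, and without it the 72 h value was 0.26. The dim SIX4 probe set 231797_at, at 7.08 to 11.8 over all arrays, stood at -0.21 at 72 h and 0.040 at 6 h.

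SIX2 maintains nephron progenitors in the kidney. Its brighter probe set, 206510_at, read 26.2, 26.9 and 30.6 at 72 h, 32.1, 36.1 and 43.0 at 6 h, and 50.5, 35.7 and 44.7 in DMSO. The 72 h arrays all lay below both other groups, and the 6 h and DMSO arrays overlapped. The log2 change was -0.63 ± 0.16 at 72 h, or 0.645 of the DMSO signal, and -0.23 ± 0.16 at 6 h. The second SIX2 probe set, below the filter at 9.60 to 14.7 over all arrays, stood at 0.15 at 72 h and so did not share the sign.

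PAX8, the nearest relative of PAX2 among the members, had overlapping groups. Its brightest probe set, 121_at, read 85.9, 81.6 and 115 at 72 h, 106, 92.7 and 88.1 at 6 h, and 91.5, 92.7 and 95.05 in DMSO. The log2 change was 0.00016 ± 0.13 at 72 h and 0.037 ± 0.13 at 6 h, and the 95% interval of the ratio to DMSO ran from 0.822 to 1.22 at 72 h and from 0.843 to 1.25 at 6 h. The 7 other PAX8 probe sets read 6.59 to 21.0 over all arrays, with log2 changes from -0.18 to 0.17 at 72 h and from -0.17 to 0.093 at 6 h.

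Of the EYA coactivators, EYA3 and EYA2 passed the filter and EYA1 and EYA4 did not. EYA3 (226170_at) read 310, 307 and 277 at 72 h, 314, 319 and 308 at 6 h, and 326, 325 and 323 in DMSO. Every BRD7552 array was below every DMSO array, by a small distance: the log2 change was -0.13 ± 0.067 at 72 h and -0.051 ± 0.067 at 6 h. The DMSO arrays of EYA3 differed by less than those of most genes, with an SD of 2.06 on a mean of 325, and its 3 other probe sets were dim (6.16 to 19.8). EYA2 (209692_at) read 36.1, 28.6 and 29.8 at 72 h, 38.9, 31.3 and 41.3 at 6 h, and 36.2, 34.7 and 36.8 in DMSO, with overlapping groups, and stood at -0.20 ± 0.15 (72 h) and 0.041 ± 0.15 (6 h) log2 units from DMSO.

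EYA1, EYA4 and SALL1 were below the filter on all their probe sets. The brighter EYA1 probe set (214608_s_at) read 18.2, 16.1 and 15.6 at 72 h, 13.1, 16.4 and 13.5 at 6 h, and 14.8, 13.1 and 15.2 in DMSO. The 72 h arrays were all above the DMSO arrays (log2 0.21 ± 0.14), and one 6 h array lay among them. The 3 EYA4 probe sets read 5.89 to 9.08 and the 2 SALL1 probe sets 5.93 to 7.84 over all arrays. At such a signal a small change in transcript could not be told from the spread of the background.

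**Figure D2:**
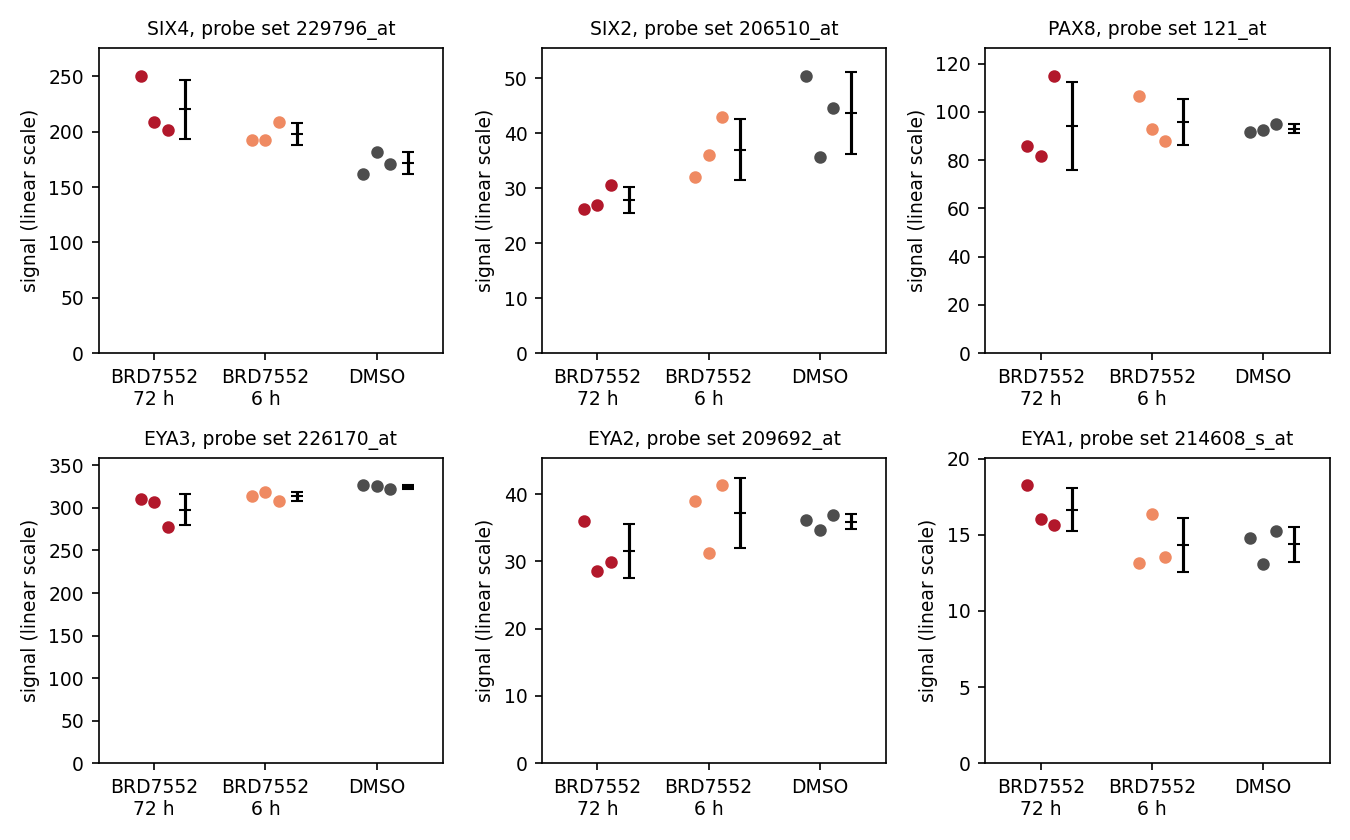
Signal (linear scale, each axis from 0) of the brightest probe set of SIX4, SIX2, PAX8, EYA3, EYA2 and EYA1 on each array, with black bars for the mean ± SD of 3 arrays. SIX4 is higher and SIX2 lower on the 72 h arrays than on the DMSO arrays, and the PAX8 and EYA2 groups overlap.

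In the fit over all genes, 3 of the 6 members above the filter were called at 72 h (PAX2 and SIX4 higher, SIX2 lower) and 1 at 6 h (PAX2, higher), where limma called 26.6% and 0.473% of all genes tested. These shares stand beside a choice made on the same values, and nothing is read from them. The 72 h and DMSO arrays did not overlap for 4 of these 6 genes (36.9% of all genes) and the 6 h and DMSO arrays for 3 (12.2%). Over all 26 probe sets, 20 overlapped with DMSO at 72 h and 22 at 6 h, where 22.5% and 8.88% of all single-symbol probe sets did not overlap. The 18 member probe sets below the filter had log2 changes between -0.21 and 0.21 at 72 h and between -0.17 and 0.063 at 6 h. Calls of SIX4 and SIX2 at 72 h rested on DMSO replicate 1: without it their log2 changes were 0.31 and -0.52 and the members called were 1. Quantile normalization, which gives all arrays the same upper quartile, gave 1.28 for PAX2, 0.44 for SIX4 and -0.53 for SIX2 at 72 h.

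**Figure D3:**
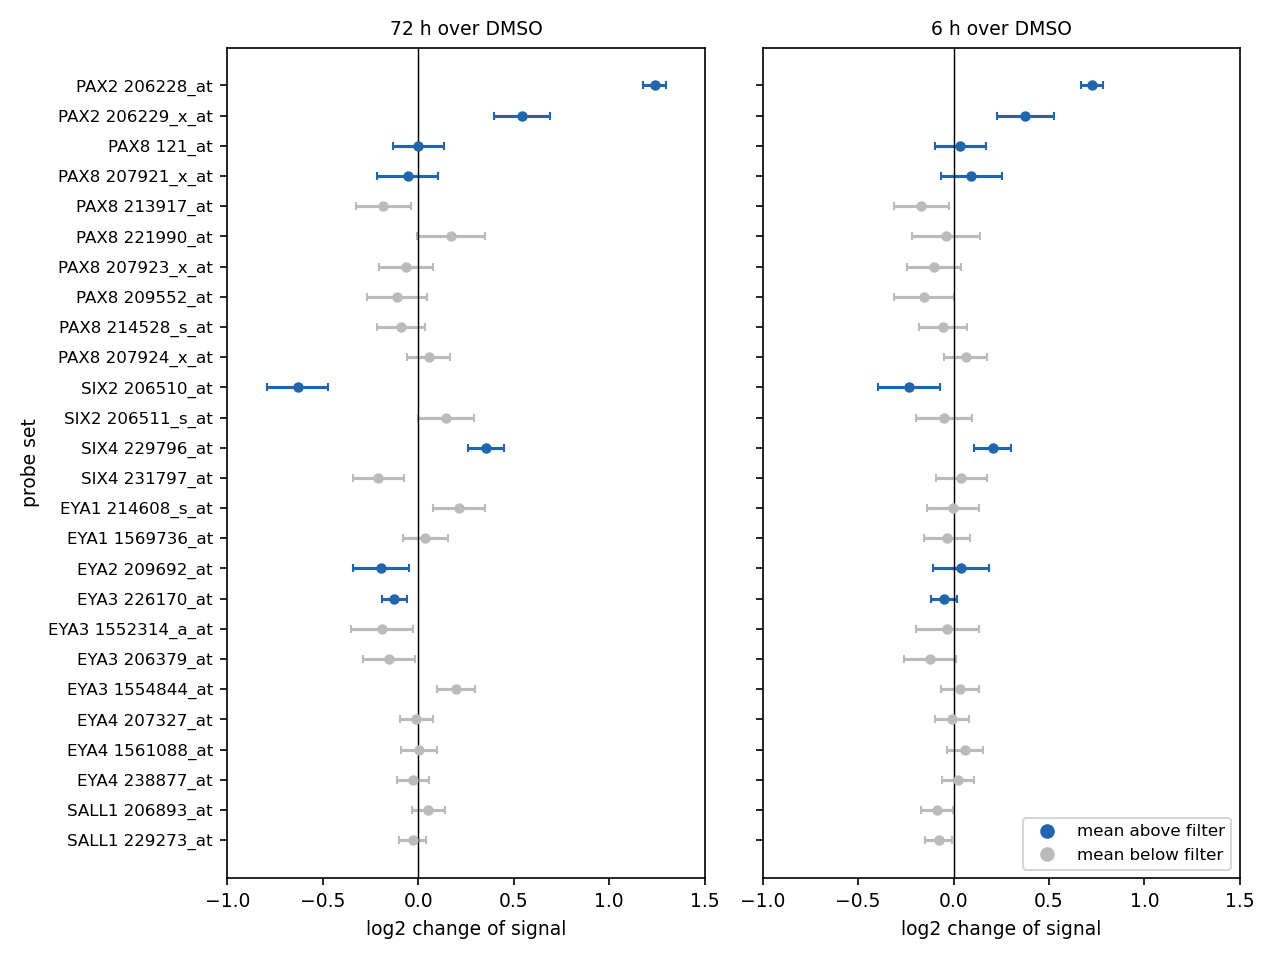
Log2 change of signal over DMSO at 72 h (left) and 6 h (right) for the 26 member probe sets, with bars for ± 1 SE of the limma estimate. Blue points average above the filter and grey points below it. PAX2 206228_at stands farthest from 0 at both times, at 1.24 and 0.73.

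No other PAX, DACH or SALL gene or SIX-family gene above the filter was called. Of 16 listed genes 15 were measured and 3 were above the filter: SIX5, a homeodomain factor near the myotonic dystrophy gene, SALL2, a zinc finger factor, and SALL4, a pluripotency factor. By limma 0 of the 3 were called at 72 h or 6 h, also 0 at an unadjusted p under 0.05, and their median log2 change was 0.024 at 72 h and 0.091 at 6 h. SIX5 averaged 85.9 ± 11.5 at 72 h, 89.5 ± 5.14 at 6 h and 83.9 ± 1.19 in DMSO (SD, n = 3 each). The 12 genes below the filter included all 7 measured PAX genes other than PAX2 and PAX8, with means of 9.24 to 19.8 in any group. Among them PAX5 read 20.5, 20.0 and 18.9 at 72 h, above all its 6 h and DMSO arrays (log2 0.25 over DMSO). For the other PAX genes below the filter the 72 h and DMSO arrays overlapped, where 22.5% of all single-symbol probe sets did not.

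The chromatin cofactors of PAX2 were called at 72 h about as often as all genes. All 15 listed cofactors were above the filter, of which 1 rose, 3 fell and 11 did not pass, where 26.6% of all genes were called, with a median log2 change of -0.048 against -0.062 over all genes. DPY30, a subunit shared by the methylation complexes, rose 1.12-fold (2661 ± 30.9 at 72 h and 2377 ± 41.4 in DMSO, log2 0.16 ± 0.042, limma adjusted p = 0.00922). KDM6A, a histone H3 demethylase of the PTIP complex, fell by 0.38 on the log2 scale (SE 0.11, adjusted p = 0.0221 by limma), and PAGR1, which binds PTIP, fell by 0.20 (SE 0.060, adjusted p = 0.0244). TLE1, a Groucho corepressor, fell by 0.21 (SE 0.068, adjusted p = 0.0291). PAXIP1, which encodes PTIP itself, averaged 730 ± 25.2 at 72 h and 678 ± 47.3 in DMSO and did not pass (limma adjusted p = 0.190). Of these calls DPY30 held without any 1 array, while KDM6A lost its own without any 1 DMSO array or 72 h replicate 2 or 3 (-0.40 to -0.28). PAGR1 did not pass without DMSO replicate 2 or 3 or 72 h replicate 3 (-0.18 to -0.16), nor TLE1 without DMSO replicate 1 or 3 or 72 h replicate 2 or 3 (-0.22 to -0.17). The other probe sets of KDM6A (-0.12), PAGR1 (-0.11) and TLE1 (-0.09 and -0.44) were not called. Among cofactors whose brightest probe set did not pass, another was called for PPM1B (0.58, higher), TLE3 (-0.47, lower) and WDR5 (-0.42, lower). The remaining TLE3 probe sets above the filter (-0.36 and -0.17) were not called. With each array centred on its median, KDM6A (-0.29), PAGR1 (-0.12) and TLE1 (-0.13) did not pass.

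Of 24 genes listed as nephric lineage partners and targets, 21 were measured and 9 were above the filter. At 72 h 3 of them rose, 2 fell and 4 did not pass, where 26.6% of all genes were called, with a median of -0.075 against -0.062 over all genes. FOXD1, a forkhead factor of kidney stroma, rose 1.22-fold (1798 ± 23.1 at 72 h, 1599 ± 31.5 at 6 h and 1470 ± 40.5 in DMSO, log2 0.29 ± 0.039, limma adjusted p = 7.07e-05), and its 3 groups did not overlap. HOXC11, a posterior homeobox factor, rose 1.36-fold (log2 0.45 ± 0.13, adjusted p = 0.0156 by limma) and SPRY1, which restrains RET signalling in the ureteric bud, rose 1.25-fold (log2 0.32 ± 0.084, adjusted p = 0.0109 by limma). CITED1, a transcriptional coregulator of nephron progenitors, read 51.8, 27.2 and 36.5 at 72 h against 61.7, 58.2 and 50.9 in DMSO. It fell by 0.61 on the log2 scale (SE 0.19, limma adjusted p = 0.0253), although 72 h replicate 1 lay within the DMSO arrays, and it did not pass without DMSO replicate 1 or 2 or 72 h replicate 2 or 3 (-0.60 to -0.38). The second fall, named after its value was seen, was that of WT1, a zinc finger factor that activates nephron genes, at -0.15 (SE 0.045, adjusted p = 0.0205 by limma), and its other probe set fell by 0.39; without DMSO replicate 2 or 3 or 72 h replicate 2 the call was lost (-0.15 to -0.13), as it was with each array centred on its median (-0.07). HOXC11 did not pass without DMSO replicate 3 (0.39) or 72 h replicate 3 (0.36), nor SPRY1 without DMSO replicate 3 (0.28), and the other SPRY1 probe set stood at -0.02. RET, the receptor gene that PAX2 activates in the nephric duct, averaged 25.2 ± 1.54 at 72 h and 27.7 ± 1.41 in DMSO and did not pass.

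Of 9 listed genes described as targets of EYA and SIX-family proteins, 7 were above the filter. At 72 h 4 fell, 0 rose and 3 did not pass, with a median of -0.18 against -0.062 over all genes. Of all genes 26.6% were called, and lower calls outnumbered higher ones there too (2322 against 1056 of 12678). MYC, the growth regulator, fell by 0.30 on the log2 scale (SE 0.046; 1041 ± 20.1 at 72 h and 1281 ± 66.6 in DMSO, limma adjusted p = 0.000237), TGFBR1, the type I TGF-beta receptor gene, by 0.27 (SE 0.066, adjusted p = 0.00692), VEGFC, a lymphatic growth factor gene, by 0.23 (SE 0.060, adjusted p = 0.0102) and CCND1, cyclin D1, by 0.18 (SE 0.058, adjusted p = 0.0328). All 4 calls were lost with each array centred on its median (-0.22 to -0.10). The calls of MYC and TGFBR1 held without any 1 array and that of VEGFC did not without DMSO replicate 3 (-0.19). CCND1 did not pass without any 1 of the DMSO arrays or 72 h replicate 3 (-0.13 to -0.18), and its other probe set stood at -0.030. Of 6 measured partners and substrates of the EYA phosphatase, all above the filter, limma called 0 at 72 h, where 2 had an unadjusted p under 0.05.

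Over these 5 lists, 40 genes were above the filter. At 72 h 13 were called (4 higher, 9 lower), a share of 32.5% where 26.6% of all genes were called, with a median of -0.086 against -0.062. The number called was 5 without DMSO replicate 3, 8 without 72 h replicate 3 and 5 with each array centred on its median. The split into higher and lower calls was then 4 and 1, against 7 and 8 after cyclic loess; over all genes it was 1056 and 2322, but 1010 and 972 with median centring, 1659 and 1973 after quantile normalization and 1727 and 1911 after cyclic loess. At 6 h limma called 0 of the 40, where 5 had an unadjusted p under 0.05, and 0.473% of all genes were called. The fall of the epithelial markers and the ACTB ratio moved with the 72 h arrays on which these lists changed, and their part in the lists was not tested. The GAPDH ratio at 72 h overlapped that in DMSO.

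**Figure D4:**
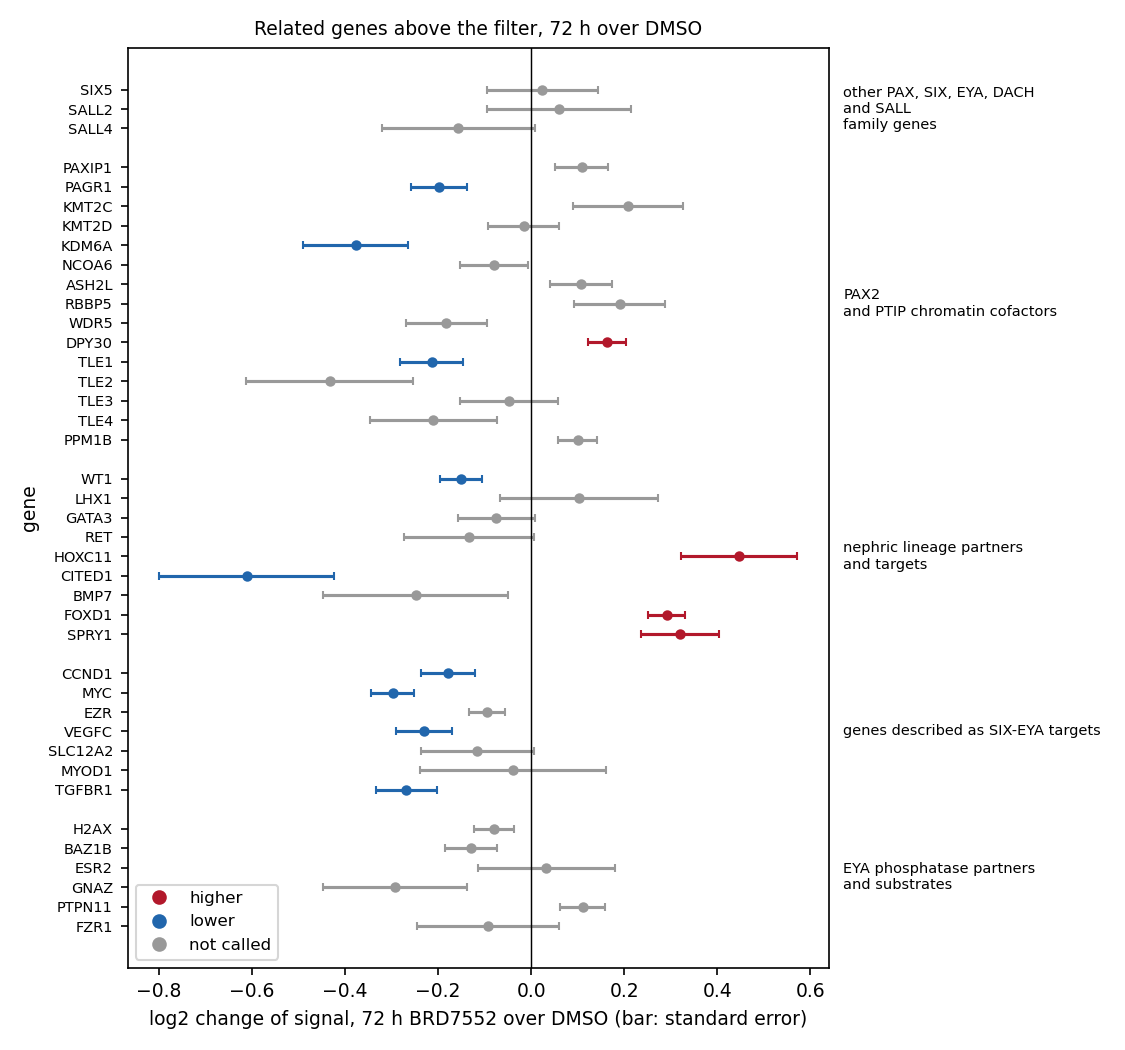
Log2 change of signal at 72 h over DMSO for the 40 related genes above the filter, grouped by list, with bars for ± 1 SE. Red points were called higher and blue points lower by limma (adjusted p under 0.05 over 12678 genes), grey points were not called. Called genes are 4 higher and 9 lower.

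Between 72 h and 6 h, 8 of the 40 related genes changed by limma (20.0% where 24.0% of all genes were called). FOXD1 (log2 0.17 ± 0.039) and SPRY1 (0.27 ± 0.084) were higher at 72 h than at 6 h, as was DPY30 (0.13 ± 0.042). The other SPRY1 probe set stood at -0.04 and was not called. GNAZ, a G protein alpha subunit gene whose product binds EYA2, was lower at 72 h, at 27.04 ± 5.22 against 40.4 ± 2.82 at 6 h (log2 -0.59 ± 0.16, limma adjusted p = 0.0119). Over DMSO, GNAZ stood at 0.30 at 6 h and -0.29 at 72 h on the log2 scale, and neither was called. The number called was 4 without 72 h replicate 2 and 4 without 6 h replicate 2. The split was 3 higher and 5 lower, but 2 and 1 with median centring, 4 and 4 after quantile normalization and 5 and 4 after cyclic loess; over all genes it was 923 and 2114, but 818 and 860, 1521 and 1731, and 1587 and 1707 under the same settings.

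No gene next to PAX2 was called higher over DMSO at 72 h or 6 h. Neighbours of PAX2 and SIX4 were taken, after the data had been seen, as the 3 nearest protein-coding genes above the filter on each side in the RefSeq order. Of the 6 neighbours of PAX2 (HIF1AN, NDUFB8, WNT8B, SLF2, MRPL43 and TWNK), 2 fell at 72 h, SLF2 (-0.49), a DNA damage factor gene, and TWNK (-0.22), the mitochondrial helicase gene, whose call was lost without DMSO replicate 1 (-0.21) and with each array centred on its median (-0.14). Between 72 h and 6 h SLF2 was lower (-0.46), and MRPL43, a mitochondrial ribosomal protein gene, was higher (0.18), a call lost without some arrays (0.15 to 0.20). At 6 h their log2 changes ran from -0.081 to 0.030. Of the 6 neighbours of SIX4, TRMT5, a tRNA methyltransferase gene, rose at 72 h (log2 0.23, but 0.02 as the mean of its probe sets, where the call was lost), and the others ran from -0.21 to 0.094.

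The genes whose signal ran most like that of PAX2 over the 9 arrays were TRIB3, DDIT4, TOM1L2, GDF15 and LAMA5. Their Pearson correlations with PAX2 (log2 signal, n = 9 arrays, which share exposure groups and array scaling) were 0.994, 0.994, 0.992, 0.989 and 0.988, and 48 of 12677 genes reached 0.95. TRIB3, a pseudokinase gene of the amino acid response, averaged 855 at 72 h, 639.7 at 6 h and 375 in DMSO, or 1.19 (72 h) and 0.77 (6 h) log2 units over DMSO, beside 1.24 and 0.73 for PAX2. DDIT4, an inhibitor of mTORC1, had 1.30 and 0.87, and GDF15, a stress-induced cytokine gene, 1.01 and 0.61. TOM1L2, an endosomal adaptor gene, had 0.52 and 0.34, and LAMA5, a laminin chain gene, 0.57 and 0.32. At 6 h TOM1L2 was not called, and the call of LAMA5 was lost without any 1 of 4 arrays (0.29 to 0.33). The genes that ran most opposite were JUN (-0.975), STAMBPL1 (-0.966) and NR3C1, the glucocorticoid receptor gene (-0.965). DDIT4 (905) and STAMBPL1 (929) each held exactly the same value on every 6 h array, so their spread there may be too small. Among the members, SIX4 had a correlation of 0.845 with PAX2, SIX2 -0.839, EYA3 -0.737, EYA2 -0.434 and PAX8 0.011.

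**Figure D5:**
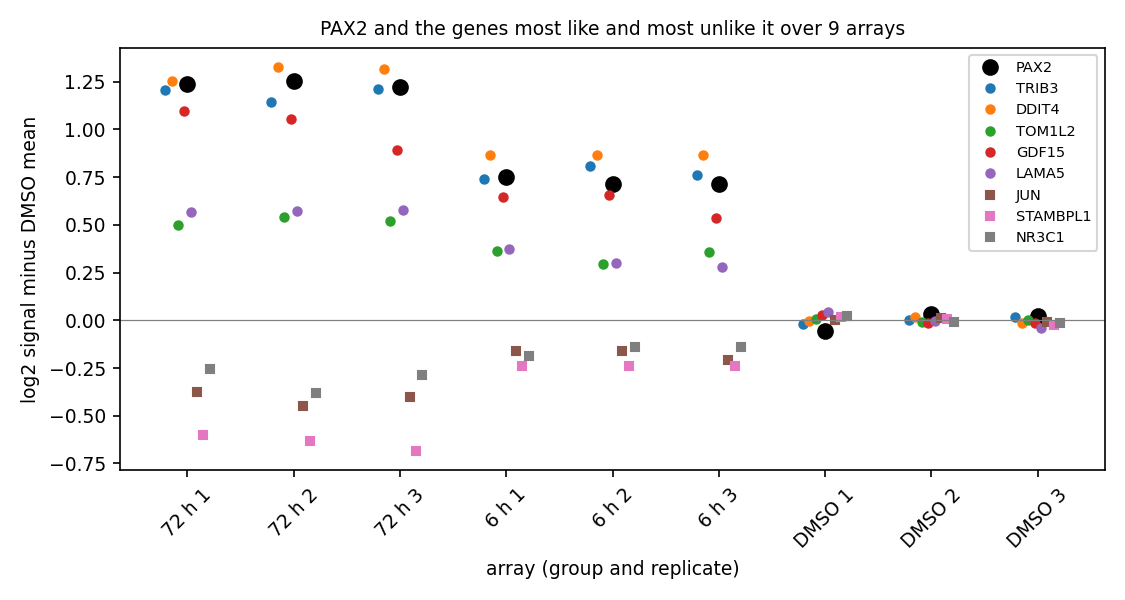
Log2 signal minus the DMSO mean on each of the 9 arrays for PAX2 (black), the 5 genes most like it (circles) and the 3 most unlike it (squares), shifted sideways for clarity. PAX2 and TRIB3 stand close together on the 72 h and 6 h arrays, and JUN, STAMBPL1 and NR3C1 lie below 0 there.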

How the data were processed

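Biotin-labelled RNA of PANC-1 cells was measured on Affymetrix arrays, 1 per sample. The deposited table gives linear intensity per probe set (4.54 to 25052), made with MAS5 per the submitters' processing notes, which name no version or scaling. Ties between arrays occurred for 59.2% of probe sets, so the summary method is uncertain, spreads may be too small, and changes of dim genes may be understated. No further normalization or pseudocount was applied before log2.

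Of the probe sets, 41097 had 1 symbol, 1801 several and 11777 none in the platform's probe table, and 41037 non-control ones matched a current record. Each of 19775 genes was represented by its brightest probe set; genes averaging below log2 4.15 were left out. Values of other probe sets came from a fit over all 41091 single-symbol probe sets. Models (lmFit, eBayes with a mean-variance trend, limma 3.58.1, R 4.3.3) used all 9 arrays and Benjamini-Hochberg adjustment, with calls at an adjusted p below 0.05, and were tested on simulated data. Errors of log2 changes are standard errors, and errors of mean signals are SDs between the arrays of a group. Spread is shared between groups, which makes the 72 h errors too small for genes that varied more there. Precision is limited by the number of arrays.

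The members and lists were chosen with earlier results of these data known. Named genes were all members, up to 4 called genes per list and comparison with the largest change, and the 5 most and 3 least like PAX2, passing over uncharacterised loci. Of the 71 related genes listed, 5 were not analysed here. Alternatives were other scalings, filters, probe set rules, variance models, sample sets, a replicate block and leaving out each array. Replicate numbers were not taken as pairs: 4 of 9 same-numbered pairs had deviations correlated above 0.1, and so had several differently numbered pairs, up to 0.34.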

Additional observations from a re-analysis of the deposited data

Results flagged for a closer look

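The responses of 8 related genes differed between the exposure times, by limma's test of 72 h over 6 h. The log2 differences were -0.26 for PAGR1, -0.33 for KDM6A, 0.13 for DPY30, 0.17 for FOXD1, 0.27 for SPRY1, -0.24 for MYC, -0.14 for EZR, which encodes the membrane linker ezrin, and -0.59 for GNAZ. Both responses share the DMSO arrays, which cancel in this difference. FOXD1 and GNAZ kept the call under all 20 alternatives tried, KDM6A under 3, DPY30 under 8, SPRY1 under 11, EZR under 14, PAGR1 under 18 and MYC under 19. The other probe sets above the filter of PAGR1 (0.001), KDM6A (-0.10) and SPRY1 (-0.04) were not called in this comparison. For EZR another probe set was called lower (-0.23), and the rest (-0.11, -0.11 and -0.04) were not called. No member was on opposite sides of the DMSO mean at all 72 h and all 6 h arrays, and groups of 3 arrays are too small for a test of single outlying arrays.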

How the results depend on the processing

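The values of PAX2, which chose it, are given as a description; the replicate block left them at 1.24 (72 h) and 0.73 (6 h). At 72 h over DMSO its log2 value was 1.32 with each array centred on its median, 1.28 after quantile normalization, 1.30 after cyclic loess, 1.18 as log2(signal + 16) and 0.89 as the mean of its probe sets, and 1.21 to 1.25 without 1 array. At 6 h it was 0.55 as the mean of its probe sets and 0.70 to 0.74 without 1 array. The members called at 72 h were 3, but 1 with the mean of a gene's probe sets, which takes in the dim probe sets of SIX2 and SIX4, and 1 to 3 without 1 array. Those called at 6 h were 1 throughout.

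Of all genes, 60 were called at 6 h, but 36 with each array centred on its median, 35 over all single-symbol probe sets, 23 without a mean-variance trend, 23 with the mean of probe sets, 211 with array weights (added once values were known) and 28 to 71 without 1 array; with the replicate block it was 54. At 72 h over DMSO 3378 were called, 1982 with median centring, 3193 with the replicate block and 2294 to 4224 without 1 array; at 72 h over 6 h 3037, 1678, 2840 and 2125 to 4000. Related genes called at 72 h over DMSO were 13, but 5 with median centring, 8 over all single-symbol probe sets, 8 without the trend and 5 to 15 without 1 array, and 13 with the replicate block. At 72 h over 6 h they were 8, but 3 with median centring, 5 over all single-symbol probe sets, 5 without the trend, 5 with only the arrays compared, 6 with the replicate block and 4 to 11 without 1 array; at 6 h 0 throughout. The cause was not tested. The loss of related genes with median centring fell on lower calls, 9 against 1. Same-numbered arrays did not pair (correlations of deviations -0.26 to 0.20, against -0.30 to 0.34 for differently numbered arrays). Of 12 named related genes called at 72 h, 4 kept the call without any 1 array. In a comparison where a member or named gene was called, its sign did not turn under the alternatives run; several values not called turned, for example those of PAX8 at 72 h (-0.15 to 0.095) and 6 h (-0.042 to 0.094) and of EYA2 at 6 h (-0.040 to 0.16) without 1 array and that of SIX4 at 72 h over 6 h (-0.05) with the mean of its probe sets. EYA1, EYA4 and SALL1 lie near background, which limits what can be seen of them.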
